A study of Mus musculus with 2 samples.

Results

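The scavenger receptors Mrc1, Cd163, Stab1, Folr2, Lyve1, Msr1, Marco and Cd36 were followed in the cells of Lewis lung carcinoma (LLC) tumors, a mouse lung cancer line grown in its host strain. These 8 genes were chosen by name, and all 8 were found among the 32285 genes counted. The tumors came from C57BL/6 mice of 2 genotypes, and each genotype gave 1 droplet-based single-cell RNA library of cells pooled from 3 tumors. Control mice, named sGC Ctr (label CT), were Gucy1b1 flox/flox. The other mice, named sGC ∆PC (label KO), carried the same alleles together with Cspg4-CreERT2 (the label spells the floxed gene Gucyc1b1), which deletes the β1 subunit of soluble guanylyl cyclase in cells that use the Cspg4 promoter, pericytes among them. Per the methods of the study, tamoxifen was given to all mice 5 times from the age of 4 weeks, LLC cells were placed under the skin at 8 weeks and the tumors were taken 2 weeks later. The control mice had tamoxifen but no Cre. Macrophages are not the target of this Cre, so the libraries ask how the receptors of tumor macrophages stood in tumors whose pericytes had lost the NO receptor. With 1 library per genotype there is no replicate and no test, and genotype, pool and library cannot be told apart.

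Scavenger receptors are surface proteins with which macrophages take up modified lipoproteins, dead cells, hemoglobin, glycoproteins and matrix fragments. Several of them are used to recognise tissue-resident or alternatively activated macrophages, and in tumors they are found on macrophages that sit close to vessels. Mrc1 encodes the mannose receptor CD206, Cd163 the receptor for haptoglobin-bound hemoglobin, Stab1 the receptor stabilin-1 for SPARC and other ligands, Folr2 a folate receptor, and Lyve1 a hyaluronan receptor that is also made by lymphatic endothelial cells (ECs). Msr1 and Marco encode class A receptors, and Cd36 a class B receptor for oxidised lipids and thrombospondin that capillary ECs also make.

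In the mouse genome (GRCm38, GENCODE vM21 genes) Mrc1 lies on chromosome 2 at chr2:14229392-14332057 (+ strand) and Cd163 on chromosome 6 at chr6:124304656-124330527 (+). Stab1 is at chr14:31139013-31168641 (−) and Folr2 at chr7:101839988-101857194 (−). Lyve1 is at chr7:110850607-110863239 (−), Msr1 at chr8:39581685-39642673 (−), Marco at chr1:120474538-120505024 (−) and Cd36 at chr5:17781690-17888801 (−). Lyve1 and Msr1 had no entry in the table of promoters, and the other 6 genes had 7 RefSeq starts in it, because Folr2 has a pair of starts. The sequences that follow are the 250 bases before a start (RefSeq, GRCm38.p6), 5′ to 3′ on the strand of the gene. They are shown because the first 4 genes stood highest in the same macrophage state while Cd36 stood highest in another. Capitals mark 3 short motifs, searched on both strands: GAGGAAG, a core letter string bound by PU.1 (encoded by Spi1), TGCTGA, a half-site of MAF proteins, and AGGTCA, a half-site of nuclear receptors. No matches overlapped.
Mrc1, chr2:14229164-14229413 (+): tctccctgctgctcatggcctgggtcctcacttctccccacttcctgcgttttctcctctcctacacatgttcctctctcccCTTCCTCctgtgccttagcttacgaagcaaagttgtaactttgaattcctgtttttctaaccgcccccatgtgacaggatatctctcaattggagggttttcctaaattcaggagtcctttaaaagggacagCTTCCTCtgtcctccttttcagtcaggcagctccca
Cd163, chr6:124304401-124304650 (+): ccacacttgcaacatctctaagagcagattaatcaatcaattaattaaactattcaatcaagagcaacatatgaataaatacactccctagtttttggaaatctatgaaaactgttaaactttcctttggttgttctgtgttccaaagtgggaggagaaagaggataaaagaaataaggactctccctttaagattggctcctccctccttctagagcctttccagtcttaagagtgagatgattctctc
Stab1, chr14:31168642-31168891 (−): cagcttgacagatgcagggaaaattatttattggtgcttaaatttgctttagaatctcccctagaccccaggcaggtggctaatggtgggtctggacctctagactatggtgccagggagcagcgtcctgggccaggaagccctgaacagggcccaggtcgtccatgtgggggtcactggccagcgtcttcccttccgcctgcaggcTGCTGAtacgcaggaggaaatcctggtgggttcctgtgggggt
Folr2, chr7:101845332-101845581 (−): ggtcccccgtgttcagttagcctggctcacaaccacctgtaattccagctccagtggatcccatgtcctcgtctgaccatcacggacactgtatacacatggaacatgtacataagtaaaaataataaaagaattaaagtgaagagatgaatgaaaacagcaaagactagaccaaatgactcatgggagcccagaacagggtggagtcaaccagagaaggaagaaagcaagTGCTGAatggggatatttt
Cd36, chr5:17835897-17836146 (−): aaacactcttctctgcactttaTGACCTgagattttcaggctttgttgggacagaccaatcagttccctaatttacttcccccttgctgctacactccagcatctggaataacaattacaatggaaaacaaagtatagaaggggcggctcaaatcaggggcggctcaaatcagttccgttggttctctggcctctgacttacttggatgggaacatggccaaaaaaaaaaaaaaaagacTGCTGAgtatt
The Mrc1 window held the PU.1 letters on the opposite strand at positions -168 and -36 from the start, and Cd163 held none of the 3 motifs. The MAF letters stood at -43 in Stab1, at -19 in Folr2 (and at -220 before its other start, not shown) and at -11 in Cd36, which also held the nuclear receptor letters at -228. Marco, not shown, held the PU.1 letters at -146. Of all 32851 such windows in the table, 10.6% held the PU.1 letters, 16.1% the MAF letters and 14.0% the nuclear receptor letters, so each match is common. A match describes the letters and says nothing of binding.

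The files held 15007 sGC Ctr and 25631 sGC ∆PC barcodes, of which 12220 and 22498 were kept. The kept cells had median depths of 35776.5 and 8685 UMIs (unique molecular identifiers, 1 for each captured transcript), so sGC ∆PC cells were the shallower ones. Both libraries shared 131 barcodes (0.873% and 0.511%). The targeted gene Gucy1b1 was counted with 59 against 12 UMIs in the cells gated as pericytes, and its log2 ratio was -1.45 (-2.48 to -0.54). Cells were assigned to classes by marker genes that hold none of the 8 receptors. This gave 2412 sGC Ctr and 2988 sGC ∆PC macrophages (median depth 10868.5 and 6692 UMIs) and 455 and 439 monocytes. The leading genes of the macrophages were Lyz2, C1qa, C1qb, Apoe and C1qc in both libraries. Droplets with RNA of both macrophages and cancer cells (582 and 4126) were kept apart. Levels are given as CPM, the summed UMIs of a gene in a class scaled to a common total of all UMIs of that class, with exact 95% Poisson intervals, and ratios as log2 of sGC ∆PC over sGC Ctr with exact conditional intervals, which cover counting error only and not the spread between tumors or cells. Because reads mark the 3′ end of transcripts and capture differs by gene, levels are compared between cells and not between genes. In each pair of values sGC Ctr comes first and sGC ∆PC next.

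Macrophages were the main source of 7 of the receptors. They held 78.8% of all sGC Ctr UMIs of Mrc1, 80.4% of Cd163, 77.2% of Folr2, 73.4% of Lyve1, 73.4% of Msr1, 70.4% of Stab1 and 61.1% of Cd36. The droplets of macrophage and cancer RNA held a further 10.7% to 15.9% of the UMIs of these 7 genes. The sGC ∆PC macrophages held 53.6% to 64.6% of them and its mixed droplets 17.4% to 26.9%. Mrc1 stood at 684 CPM in sGC Ctr macrophages (674 to 693), 53.1 in monocytes, 45.1 in granulocytes, 3.40 in ECs and 4.23 in cancer cells. The macrophage level stood far above that of each of these classes. In sGC ∆PC Mrc1 stood at 503 CPM in macrophages, 101 in monocytes, 30.4 in granulocytes, 5.75 in ECs and 6.38 in cancer cells. Cancer cells are not known to make these receptors, and their level was read as the background of the droplets. This level may include droplets gated as cancer cells that held macrophage RNA below the limit for macrophages. With every cell thinned to 2000 UMIs, Folr2 was found in 35.7% and 27.2% of macrophages and in 0.393% and 0.763% of cancer cells.

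**Figure D1:**
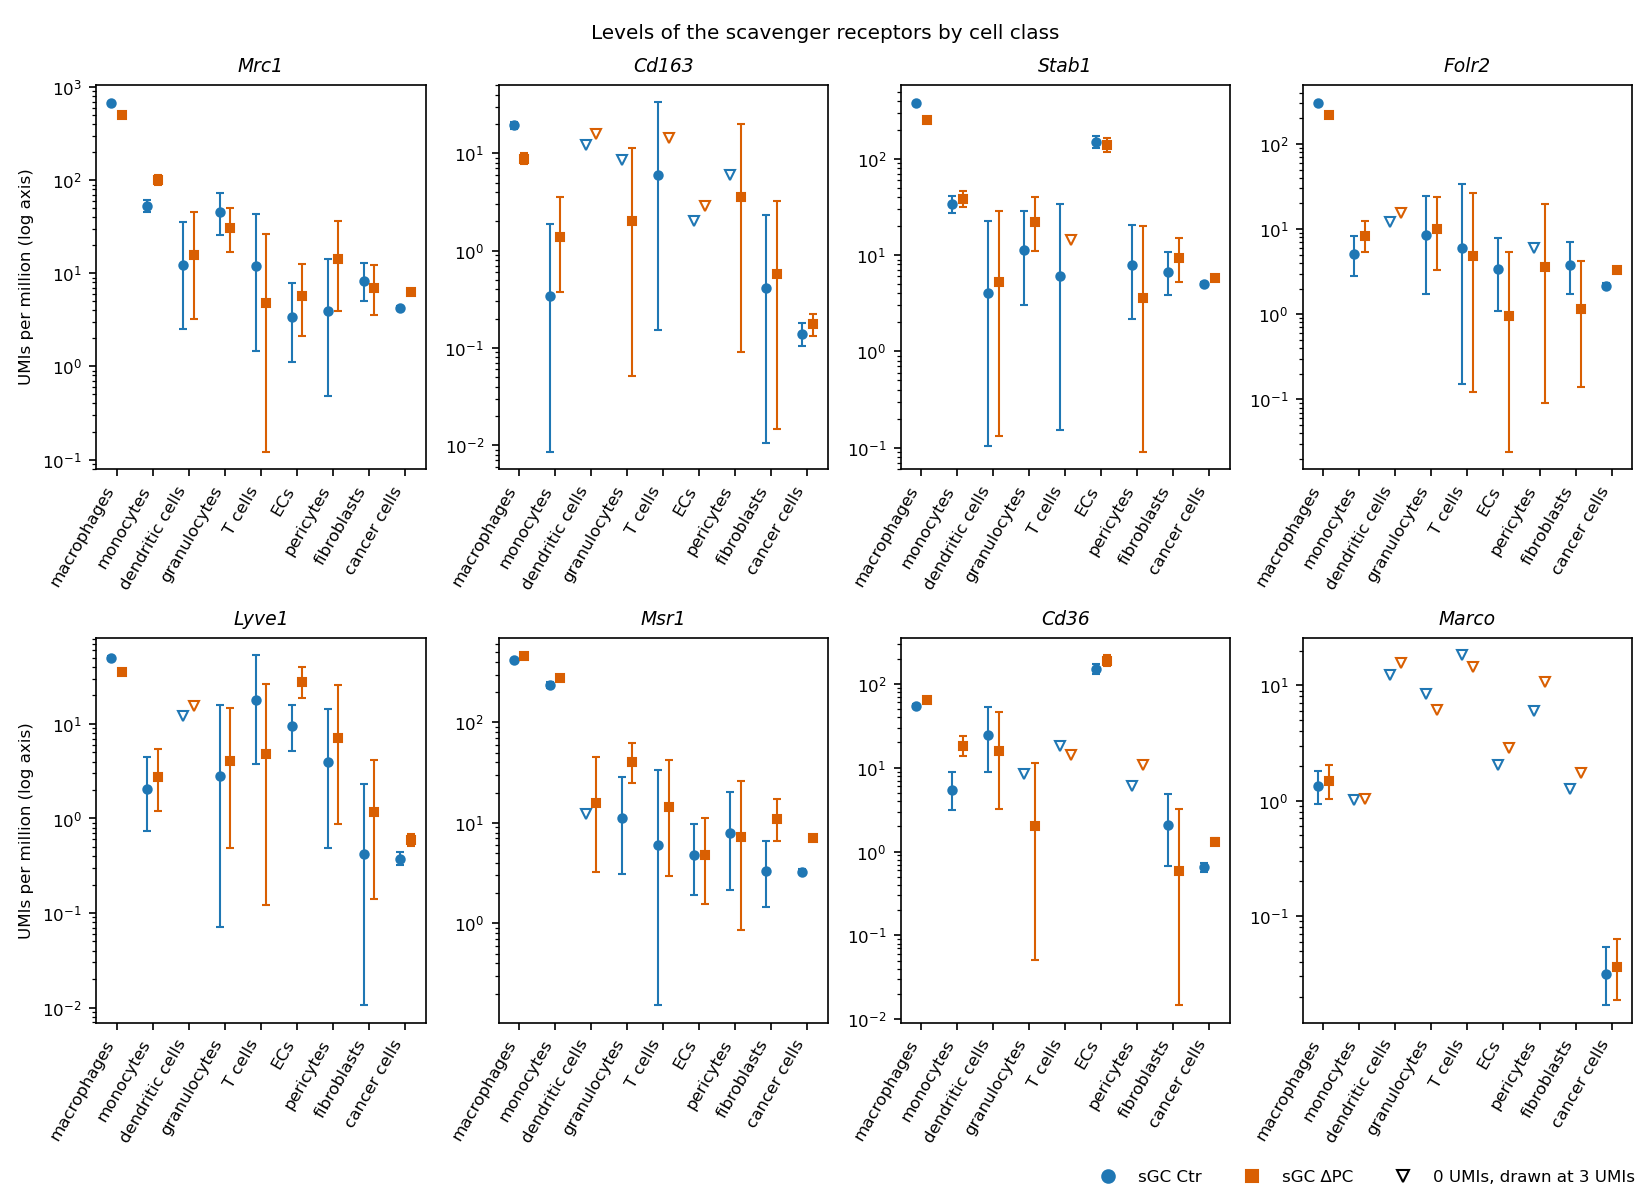
Level of each receptor (CPM, log axis) in 9 cell classes of the sGC Ctr and sGC ∆PC libraries. Points are CPM of summed UMIs, bars are 95% Poisson intervals, and open triangles mark classes with 0 UMIs at the level that 3 UMIs would give. Of the classes drawn, macrophages are highest for Mrc1, Stab1, Folr2, Lyve1 and Msr1 in both libraries, and ECs stand above macrophages for Cd36, at 152 and 190 CPM.

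Folr2, the folate receptor, stood at 304 and 220 CPM in the macrophages of both libraries, against 5.07 and 8.32 in monocytes. Its level in cancer cells was 2.16 and 3.30 CPM. Monocytes were shallower than cancer cells, so these CPM do not show whether the monocyte level was above background. Msr1, the class A receptor for modified lipoproteins, was the receptor with the smallest gap between monocytes and macrophages. It stood at 416 and 456 CPM in macrophages and at 235 and 274 CPM in monocytes. At 2000 UMIs Msr1 was found in 31.1% and 38.4% of monocytes, against 51.2% and 52.6% of macrophages and 0.637% and 2.20% of cancer cells.

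A pair of the receptors was also carried by ECs, lining cells of vessels, of which 53 and 51 were gated. Cd36 stood at 152 CPM in sGC Ctr ECs (133 to 173) and 190 in sGC ∆PC ECs (164 to 218), above the 54.0 and 63.9 CPM of macrophages in both libraries. Stab1 stood at 150 and 139 CPM in ECs, below its 382 and 253 CPM in macrophages, with no overlap of the intervals. Between the libraries the ECs did not differ beyond counting error in Stab1 (log2 ratio -0.11, -0.42 to 0.20), and Cd36 was 0.32 higher in sGC ∆PC (0.04 to 0.60). Lyve1 in ECs had 14 and 29 UMIs (9.51 and 27.8 CPM). A single sGC Ctr cell passed the gate of lymphatic ECs, and it alone held 14 Lyve1 and 5 Stab1 UMIs. Folr2, Mrc1 and Msr1 had at most 7 UMIs in the ECs of either library, and Cd163 and Marco had 0. Fibroblasts and pericytes held at most 20 UMIs of any receptor in a library, and T cells at most 3.

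Within the macrophages, 6 states were gated by marker lists, again without the receptors. The resident-like state, defined by Ccl8, Cbr2, Gas6, Selenop, Pf4 and F13a1, held 254 sGC Ctr and 207 sGC ∆PC cells, 10.5% and 6.93% of macrophages. In each library 5 of the 7 receptors with at least 50 macrophage UMIs were 2-fold or more higher in this state than in the other macrophages, against 2.11% (sGC Ctr) and 1.95% (sGC ∆PC) of all genes tested. The median over the 7 receptors was 1.64 and 1.70 on the log2 scale. The 5 were Mrc1, Cd163, Stab1, Folr2 and Lyve1, and each was higher in this state than in every other state, with no overlap of the intervals with the second state, in both libraries. The share of all genes that meet this second rule was not computed. Folr2 stood 1.72-fold (sGC Ctr) and 1.78-fold (sGC ∆PC) above the group that came second. The state was defined without these genes, but its markers were chosen with earlier results of these data known.

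Mrc1 stood at 2145 CPM in the resident-like sGC Ctr cells (2096 to 2194) and 1859 in those of sGC ∆PC (1802 to 1917), against 796 and 684 CPM in the next state, that of Gpnmb, Mmp12 and Hmox1. It was lowest, at 146 and 81.2 CPM, in the osteoclast-like state (Ctsk, Mmp9, Acp5 and Atp6v0d2). Cd163 was found mainly in the resident-like state. It stood at 124 CPM (113 to 136) and 54.2 CPM (44.8 to 65.0) there, at 24.9 CPM in the Gpnmb state of both libraries, and between 0 and 4.56 CPM in all other states. Against the other macrophages this was a log2 difference of 4.68 (4.38 to 4.98) and 3.58 (3.18 to 3.97). Lyve1 stood at 288 and 232 CPM in the resident-like state and at 0.684 and 1.18 CPM in the MHC class II high state, where it had 2 and 5 UMIs.

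Stab1 and Folr2 had the same first state but a flatter profile. Stab1 stood at 946 and 690 CPM in resident-like cells and next at 373 and 276 CPM in proliferating macrophages (Mki67, Top2a, Birc5, Ube2c and Cdk1). Folr2 stood at 556 and 451 CPM in resident-like cells and next at 323 and 253 CPM in the macrophages with no state, the largest group (1177 and 1555 cells). At 2000 UMIs the share of resident-like cells in which Folr2 was found was 63.4% (57.1 to 69.3) and 50.0% (42.2 to 57.8), and at this depth a cell without a UMI may still express it.

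**Figure D2:**
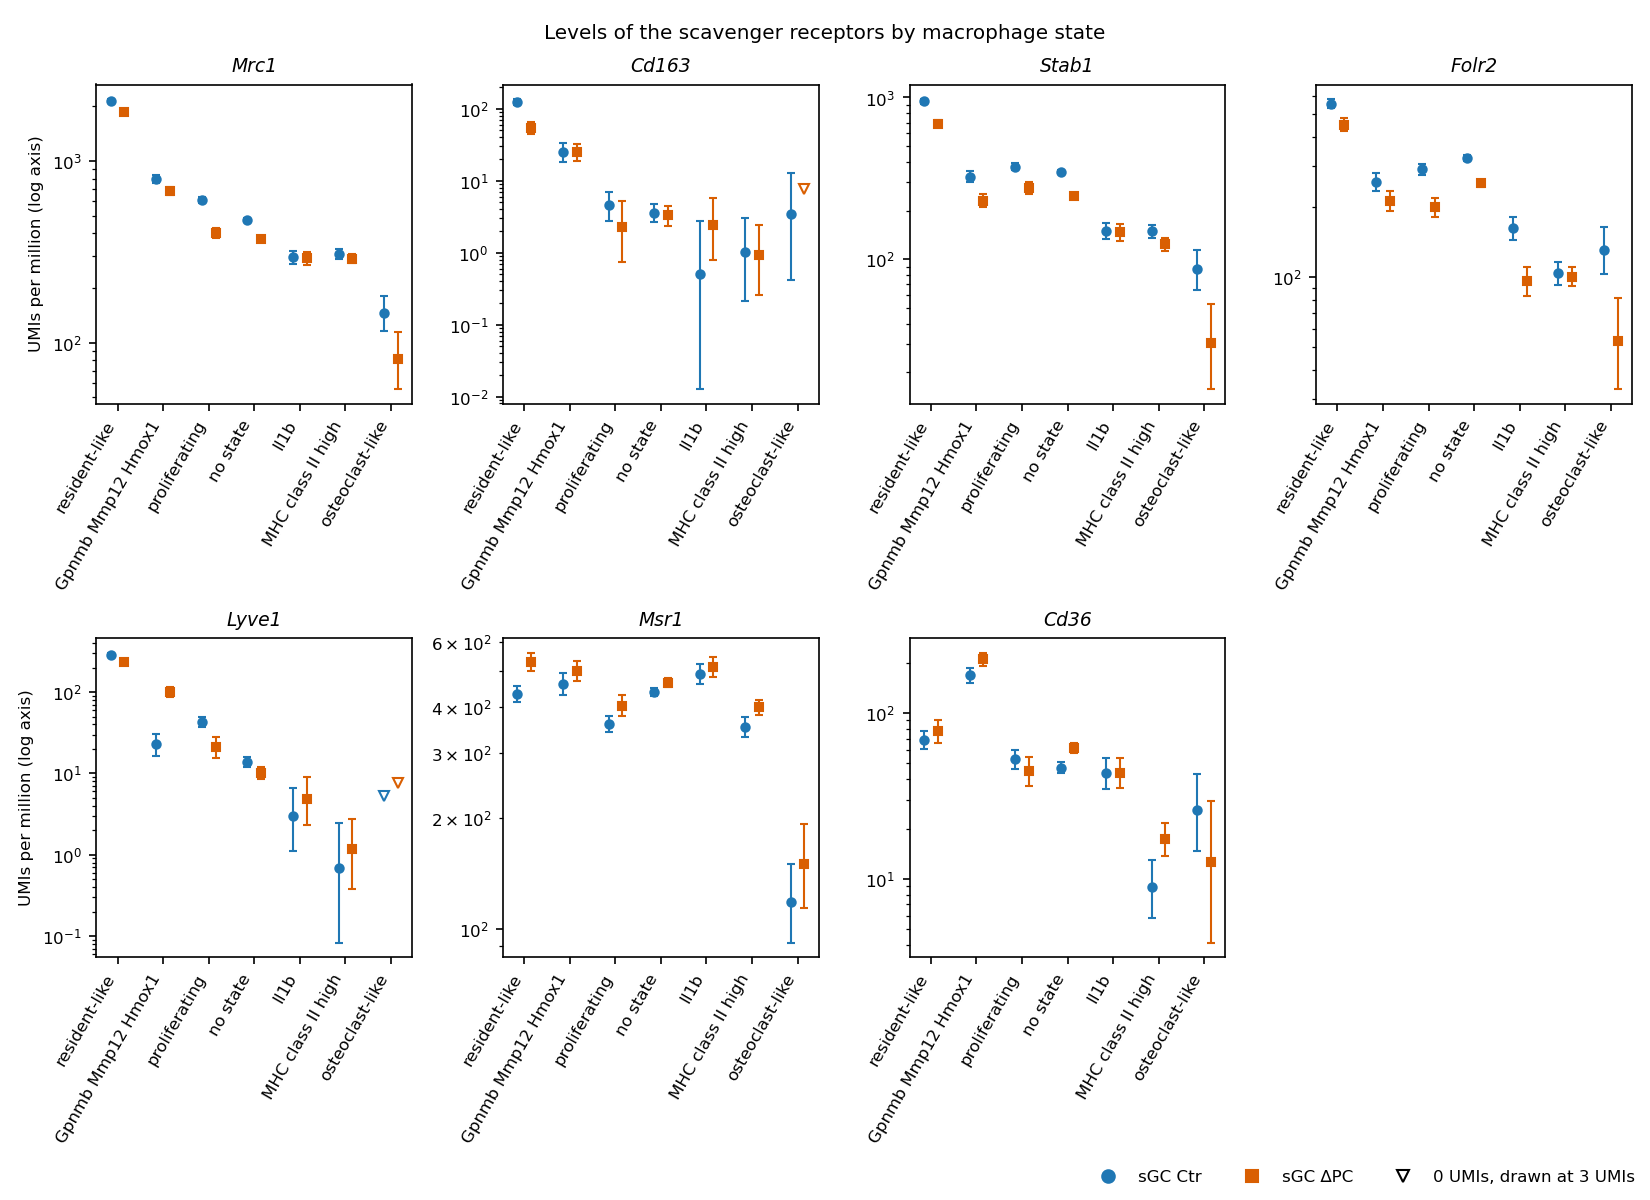
Level of 7 receptors (CPM, log axis) in 6 macrophage states and in macrophages of no state, in the sGC Ctr and sGC ∆PC libraries. Points are CPM of summed UMIs with 95% Poisson intervals, and open triangles mark 0 UMIs, drawn at the level of 3 UMIs; Mrc1, Cd163, Stab1, Folr2 and Lyve1 are highest at the left, in the resident-like state, Cd36 in the Gpnmb state, and Msr1 is flat but for the osteoclast-like state.

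Msr1 and Cd36 had other profiles. Msr1 was even across the states: its highest levels, 492 CPM in the Il1b state of sGC Ctr and 529 CPM in the resident-like state of sGC ∆PC, overlapped the second state in their intervals, and 6 of the 7 groups of macrophages lay between 353 and 529 CPM in the libraries. The exception was the osteoclast-like state at 118 and 150 CPM. Cd36 was highest in the Gpnmb Mmp12 Hmox1 state (173 and 225 cells), at 168 CPM (151 to 188) and 210 CPM (191 to 231), against 68.8 and 77.4 CPM in the resident-like state that came second. It was lowest in the MHC class II high state of sGC Ctr (8.90 CPM) and in the osteoclast-like state of sGC ∆PC (12.7 CPM, 5 UMIs).

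The MHC class II high macrophages (H2-Aa, H2-Ab1, H2-Eb1 and Cd74), 284 and 529 cells, were low in most receptors. In sGC Ctr 6 of the 7 receptors were 2-fold or more lower there than in the other macrophages, against 5.84% of genes, and in sGC ∆PC 5 of 7, against 4.35%. Msr1 was the exception in both, with log2 differences of -0.26 and -0.23, and Mrc1 in sGC ∆PC stood at -0.91. The Il1b state (Il1b, Nlrp3, Cxcl2 and Ptgs2) had like levels of Mrc1, 295 and 291 CPM against 308 and 291 CPM, and the intervals of these neighbours overlapped. In the osteoclast-like cells, 36 and 52 in number, Mrc1, Stab1, Folr2, Msr1 and Cd36 were each 2-fold or more lower than in the other macrophages in both libraries, where 16.8% and 17.4% of genes were, though Cd36 rested on 15 and 5 UMIs. Cd163 had 2 and 0 UMIs there and Lyve1 none, and 3 UMIs would give 5.22 CPM in sGC Ctr and 7.61 CPM in sGC ∆PC. Macrophage markers as a list were also lower in this state, at 3953 and 3336 CPM, against 12829 and 10466 CPM in all macrophages. Their part in the low receptor levels was not tested.

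Monocytes (Ly6c2, Plac8, Ccr2, Chil3 and Ms4a4c) stood below macrophages in every receptor. In both libraries 6 of 7 receptors were 2-fold or more lower than in macrophages, against 14.7% (sGC Ctr) and 9.95% (sGC ∆PC) of genes, with medians of -3.69 and -2.67 on the log2 scale. Cd163 rested on 1 and 4 monocyte UMIs. Folr2 was the farthest below in sGC Ctr among those with 15 or more monocyte UMIs (log2 difference -5.91, -6.74 to -5.18). Msr1 was the exception at -0.82 and -0.73. The Marco UMIs of monocytes were 0 in both libraries, where 3 UMIs would give 1.01 and 1.04 CPM.

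The receptors also met in the same cells. At 2000 UMIs per cell, with 30 sGC Ctr and 686 sGC ∆PC macrophages of lower depth left out, a macrophage held 1.83 and 1.60 of the 8 receptors on average, and 4 or more were found in 263 of 2382 and 162 of 2302 cells. In resident-like cells the mean was 3.13 and 2.92, and 39.4% and 34.5% held 4 or more. The mean was 0.466 and 0.623 in monocytes, 0.160 and 0.217 in granulocytes and 0.0327 and 0.0689 in cancer cells, the last read as background. No receptor was found in 1.97% and 2.98% of resident-like macrophages, against 29.7% and 26.5% of MHC class II high macrophages.

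**Figure D3:**
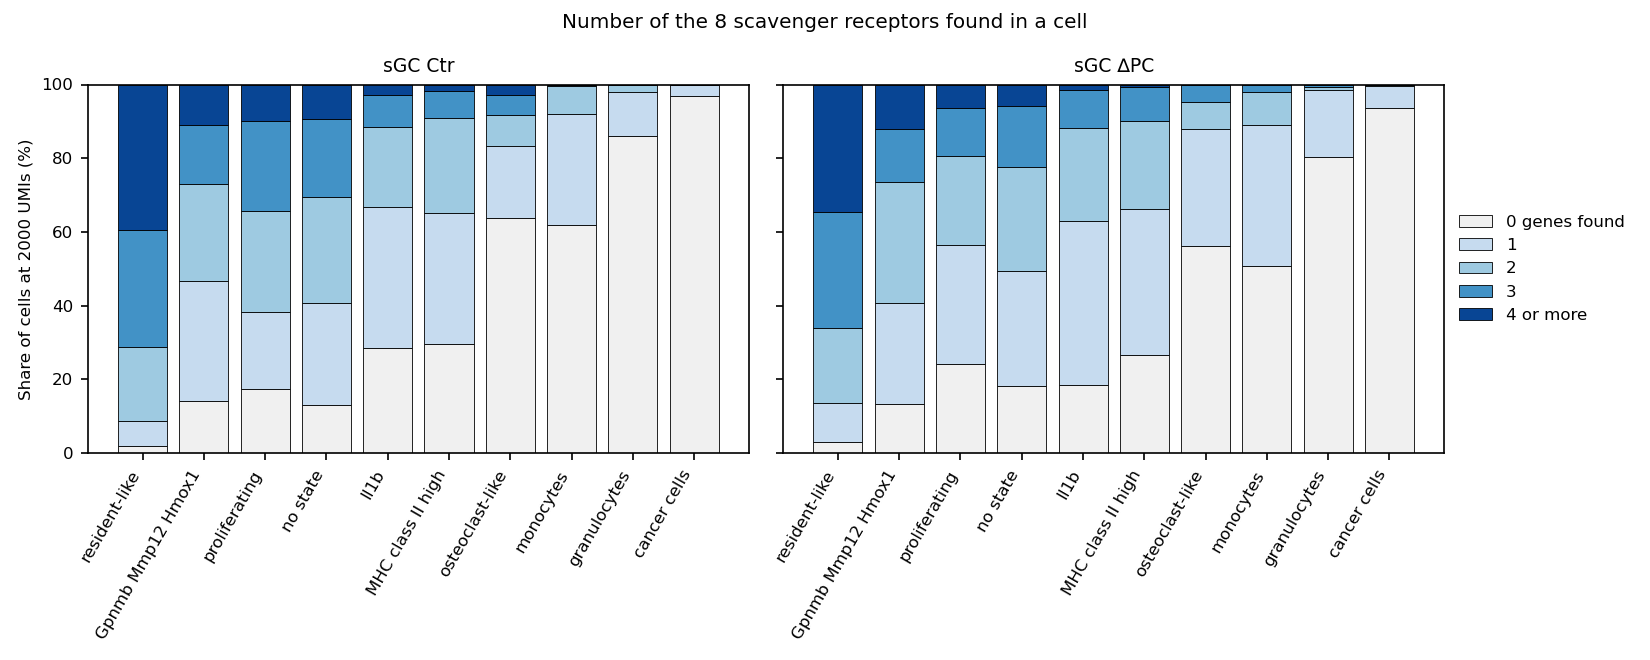
Share of cells (%) in which 0, 1, 2, 3 or 4 or more of the 8 receptors were found, with every cell thinned to 2000 UMIs, by macrophage state and in monocytes, granulocytes and cancer cells of each library. The darkest part, 4 or more receptors, is largest in the resident-like state (39.4% and 34.5%), and cancer cells show the level read as background.

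Lyve1 was found far more often in macrophages with Cd163 than in those without it. At 2000 UMIs Lyve1 was found in 14 of the 30 sGC Ctr macrophages with Cd163 (46.7%, 28.3 to 65.7) and in 2.59% (1.99 to 3.32) of those without it. In sGC ∆PC it was found in 11 of 25 (44.0%, 24.4 to 65.1) and in 2.24% (1.67 to 2.93). The same held inside the resident-like state, where 13 of 19 sGC Ctr cells with Cd163 also held Lyve1 (68.4%, 43.4 to 87.4), against 11.5% (7.71 to 16.3) of the cells without it, and 8 of 13 sGC ∆PC cells did (61.5%, 31.6 to 86.1), against 14.8% (9.64 to 21.4). These are binomial intervals over cells of 1 library, and cells of a library are not replicates. Mrc1 and Stab1 met more loosely: Stab1 was found in 52.8% of sGC Ctr macrophages with Mrc1 and 27.5% of those without, and in 38.5% and 21.1% in sGC ∆PC. Cd36 was found at like shares with and without Mrc1, in 7.81% (6.28 to 9.58) and 7.35% (5.99 to 8.90) of sGC Ctr macrophages, and in sGC ∆PC 99 of the 896 cells with Mrc1 held it, against 8.61% (7.19 to 10.2) of those without, with overlapping intervals in both. With Folr2 the shares were less alike: Cd36 was found in 10.5% (8.49 to 12.7) of sGC Ctr macrophages with Folr2 and 5.94% (4.81 to 7.24) of those without.

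The receptors differed in how many cells carried their UMIs. Cd163 rested on few cells: 8 of 2412 sGC Ctr macrophages and 7 of 2988 sGC ∆PC macrophages held at least 50% of its UMIs. For Lyve1 the numbers were 15 and 10 cells, for Cd36 97 and 91, for Mrc1 208 and 165, for Stab1 266 and 203, for Folr2 370 and 254 and for Msr1 496 and 405. The sGC Ctr macrophage with most Cd163, a resident-like cell of 31369 UMIs, held 52 UMIs of Cd163, 55 of Lyve1 and 179 of Mrc1, also the most Mrc1 of that library. In sGC ∆PC the cell with most Cd163 was instead of the Gpnmb state and held 27 UMIs of Cd163, 25 of Cd36 and none of Lyve1.

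**Figure D4:**
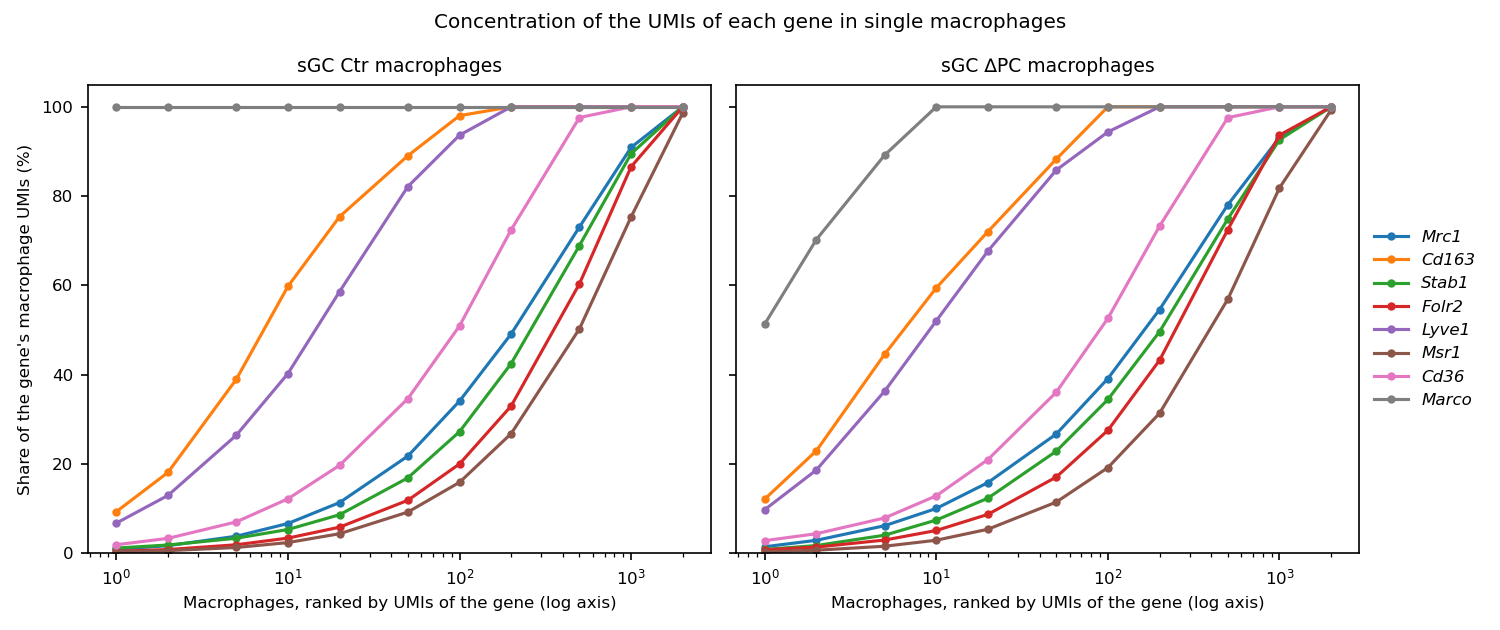
Share of the macrophage UMIs of each receptor (%) held by the macrophages with most UMIs of it, ranked from the highest (log axis), in each library. Curves that rise early rest on few cells: 1 cell holds all Marco UMIs in sGC Ctr, 8 and 7 cells hold at least 50% of Cd163, and 496 and 405 cells hold at least 50% of Msr1.

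Marco was a property of single cells. Its 38 macrophage UMIs in sGC Ctr all lay in 1 proliferating macrophage of 17237 UMIs, which was also the cell with most Cd36 UMIs (30) of that library and held 23 Mrc1 and 20 Msr1 UMIs. The 37 UMIs in sGC ∆PC lay in 9 macrophages, 19 of them in 1 cell of the Il1b state. Its level of 1.33 and 1.47 CPM is therefore no level of a population, and Marco was left out of statements on states.

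By the measure of likeness used, Pearson's r of log2(CPM + 1) over 30 points (15 classes and states in each of 2 libraries) among 7970 genes, the nearest patterns differed by receptor. The points share library and depth, and r is a description. Mrc1 was most like Pf4 (0.96), Adgre1 (0.96) and Apoe (0.96), and Folr2 most like C1qa, C1qb and Ms4a7 (0.96 each), of which all but Apoe are markers used in the gates. Msr1 was most like Lyz2 (0.97), Tlr8 (0.97) and C3ar1 (0.96), genes of the wider myeloid lineage. Stab1 was most like Sh3tc1, Grn and Plxna4os1 (0.92 each). Cd163 was most like Npl (0.85), Cela1 (0.84) and Wwp1 (0.83), and Lyve1 was most like Cd163 (0.80), Pgm2l1 (0.80) and Wwp1 (0.78). Cd36 was most like Cgnl1 (0.91), Pdgfb (0.86) and Tbc1d9 (0.86), and Pdgfb is a growth factor of ECs.

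Between the genotypes, 5 receptors stood lower and 3 higher or level in sGC ∆PC macrophages. The median log2 ratio over the 8 receptors was -0.46, against -0.05 over the 11903 genes with at least 50 UMIs (quartiles -0.17 and 0.10). Since the median of all genes also lay below 0, the count of 5 alone does not set the receptors apart. The 5 lower receptors each lay below the lower quartile of all genes, and Msr1 and Cd36 lay above the upper quartile. Marco, also among the 8 of the median, stood at 0.14. Its interval (-0.55 to 0.83) reached past both quartiles, and all its sGC Ctr UMIs lay in 1 cell. Cd163 was the 1 receptor of 8 that was 2-fold or more lower, where 0.328% of genes were, and none was 2-fold or more higher, where 0.933% were. Macrophage markers as a list were also lower, at 12829 and 10466 CPM (log2 ratio -0.29), fibroblast markers were higher, at 187 and 289 CPM (0.62), and cancer cell markers were level, at 129 and 130 CPM. Leaving out macrophages at a fibroblast marker level of 5 or more kept 2264 of 2412 sGC Ctr and 2036 of 2988 sGC ∆PC cells. The ratios were then -1.09 for Cd163, -0.61 for Lyve1, -0.55 for Stab1, -0.42 for Folr2 and -0.40 for Mrc1. Msr1 stood at 0.19 and Cd36 at 0.28. This setting was chosen after seeing the data, and the part of the lists in the ratios was not tested further.

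Cd163, the hemoglobin scavenger, was counted with 557 against 222 UMIs in macrophages, or 19.5 against 8.79 CPM. Its log2 ratio was -1.15 (-1.38 to -0.92), at the 0.202 percentile of genes. Within the resident-like state the ratio was as large, -1.20 (-1.50 to -0.90), from 435 and 117 UMIs. Outside that state no difference was detectable in the 2 groups with most of its other UMIs: the ratio was 0.00 (-0.60 to 0.60) in the Gpnmb state, from 48 and 51 UMIs, and -0.13 (-0.77 to 0.51) in macrophages of no state, from 48 and 40 UMIs. The Gpnmb-state UMIs lay in 5 cells of each library, and the top cell held 19 and 27 of them. Without these top cells the ratio in the Gpnmb state was -0.36 (15.2 and 11.8 CPM). Without the top cell of each library the macrophage ratio was -1.19. At 2000 UMIs, however, the share of resident-like cells with Cd163 was 7.48% (4.56 to 11.4) and 7.74% (4.18 to 12.9), so a smaller share of cells was not detectable at this depth. With every macrophage thinned to 2000 UMIs the ratio was -0.86, short of 2-fold, and with the states weighted as in sGC Ctr it was -0.90.

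Mrc1 was counted with 19564 against 12692 UMIs, or 684 against 503 CPM. Its log2 ratio was -0.44 (-0.48 to -0.41), outside the quartiles of all genes. In resident-like cells it was -0.21 (-0.26 to -0.15), in macrophages of no state -0.34 (-0.39 to -0.28) and in proliferating ones -0.59 (-0.70 to -0.48), while in MHC class II high cells (-0.08, -0.21 to 0.04) and Il1b cells (-0.02, -0.19 to 0.15) no difference was detectable. The resident-like and proliferating states held smaller gated shares in sGC ∆PC (6.93% against 10.5%, and 4.75% against 9.99%). A state needed 5 UMIs of its list, and macrophages had median depths of 10868.5 and 6692 UMIs. The part of depth in these shares was not tested. With the states weighted as in sGC Ctr, the Mrc1 ratio was -0.29.

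Stab1 was lower by a log2 ratio of -0.60 (-0.64 to -0.55; 10941 and 6381 UMIs, 382 and 253 CPM). The ratio was between -0.49 and -0.43 in the resident-like, Gpnmb, proliferating and no-state groups and -0.03 (-0.27 to 0.20) in the Il1b state. Folr2 was lower by -0.47 (-0.52 to -0.42; 8709 and 5559 UMIs), with -0.30 in resident-like cells and -0.75 (-1.01 to -0.49) in the Il1b state, where Mrc1 and Stab1 were level. Lyve1 was lower by -0.51 (-0.63 to -0.39; 1433 and 889 UMIs), with -0.31 (-0.47 to -0.16) in resident-like cells.

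Lyve1 went the other way in 1 state. In the Gpnmb Mmp12 Hmox1 macrophages it was counted with 44 against 204 UMIs, or 22.8 against 99.6 CPM, and the log2 ratio was 2.13 (1.65 to 2.63). A single sGC ∆PC cell of 30743 UMIs held 87 of the 204, 2 cells held at least 50% of them, and without the top cell of each library the ratio was 1.83 (16.3 and 58.0 CPM). UMIs of Lyve1 were found in 18 and 17 cells of the state, out of 173 and 225.

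Msr1 and Cd36 did not share the lower level. Msr1 was counted with 11907 against 11503 UMIs, and its log2 ratio was 0.13 (0.09 to 0.17), at the 78.5 percentile of genes, and 0.29 (0.18 to 0.40) in resident-like cells. Cd36 was counted with 1547 against 1613 UMIs, at a ratio of 0.24 (0.14 to 0.34) at the 86.3 percentile, with 0.40 (0.24 to 0.56) in macrophages of no state. Both turned, to -0.21 and -0.13, where no limit was set on cancer cell markers, and Msr1 also turned, to -0.14, as a mean of single-cell CPM. Marco had 38 and 37 UMIs (0.14, -0.55 to 0.83).

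**Figure D5:**
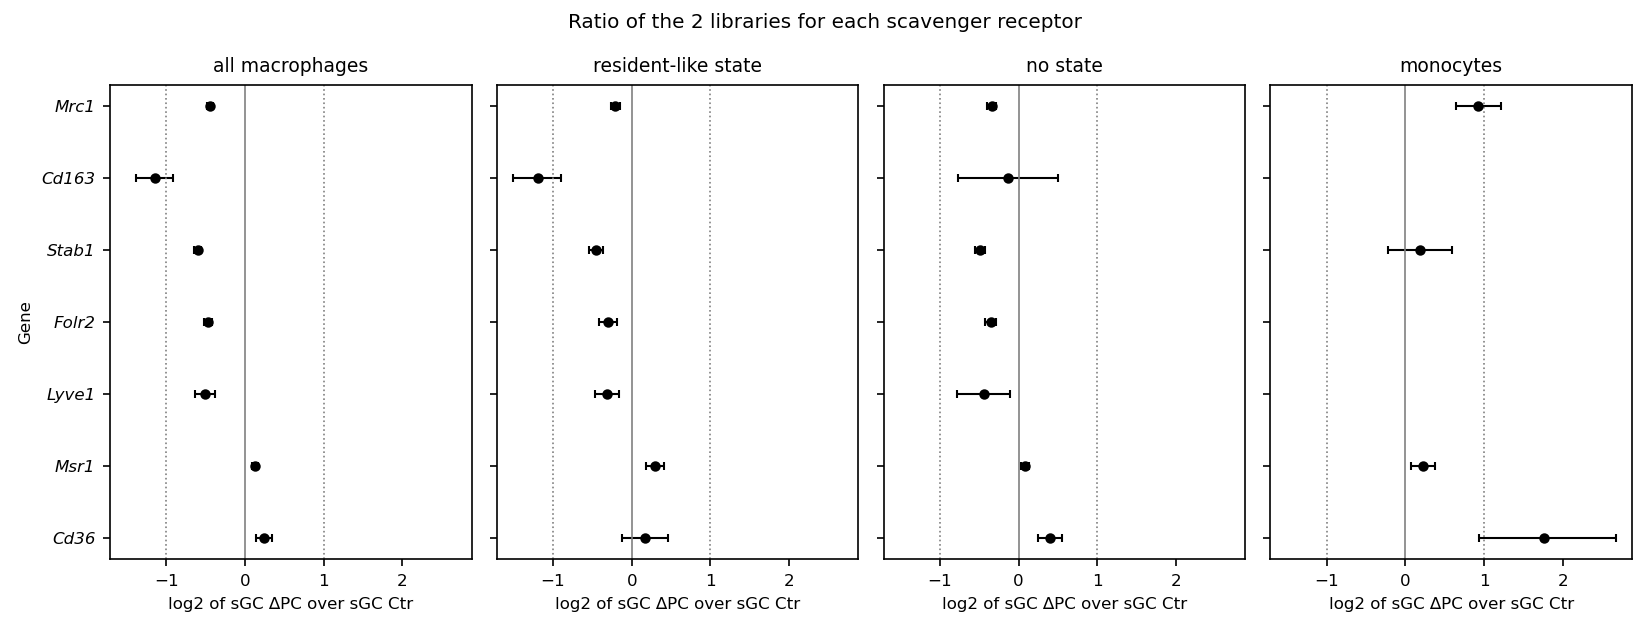
Log2 ratio of sGC ∆PC over sGC Ctr for 7 receptors in all macrophages, in the resident-like state, in macrophages of no state and in monocytes. Points are ratios of CPM, bars are exact 95% intervals for counting error, dotted lines mark 2-fold, and receptors with under 50 UMIs in a panel are not drawn; the first 5 receptors lie left of 0 in macrophages, and Mrc1 and Cd36 lie right of 0 in monocytes.

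In monocytes Mrc1 and Cd36 were higher in sGC ∆PC. Mrc1 was counted with 157 against 291 UMIs, or 53.1 against 101 CPM. Its log2 ratio was 0.93 (0.64 to 1.21), and it was found in 8.83% (6.38 to 11.8) and 10.9% (7.98 to 14.5) of monocytes at 2000 UMIs. At least 50% of its UMIs lay in 13 and 10 monocytes. Cd36 was counted with 16 against 53 UMIs, at a ratio of 1.76 (0.93 to 2.67), and 12 of the 53 lay in 1 cell. Of the 4 receptors with at least 50 monocyte UMIs, Cd36 alone was 2-fold or more higher, where 0.494% of genes were, and none was 2-fold or more lower, where 0.221% were. Msr1 stood at 0.22 (0.07 to 0.37), and Stab1 at 0.19 (-0.22 to 0.59) did not differ beyond counting error. Macrophage markers in the monocytes stood at 1263 and 1428 CPM (log2 ratio 0.18), and their part was not tested.

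As CPM, the background in cancer cells was higher in sGC ∆PC. These cells were shallower there, with median depths of 50186 and 14611.5 UMIs, and CPM is scaled to all UMIs. The part of depth in these ratios was not tested. Over 7461 and 11876 cancer cells, Msr1 had 1349 and 2356 UMIs and Cd36 269 and 434. Folr2 had 887 and 1095, and Mrc1 1740 and 2119. In cancer cells Msr1 had a log2 ratio of 1.11 (1.02 to 1.21), from 3.28 to 7.09 CPM, Cd36 of 1.00 (0.78 to 1.22), from 0.654 to 1.31 CPM, Folr2 of 0.61 and Mrc1 of 0.59. These levels are small beside those of macrophages. The Cd36 CPM of monocytes, 5.41 and 18.4, was above that of cancer cells in both libraries. Monocytes were shallower than cancer cells, with median depths of 6252 and 6769 UMIs. They held 16 and 53 Cd36 UMIs in 455 and 439 cells. Whether Cd36 stood above background in monocytes was not tested.

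Related genes were taken by function, not by how they moved. Of 10 other scavenger receptors of classes A to L with at least 50 UMIs, none was 2-fold or more lower in sGC ∆PC macrophages, where 0.328% of genes were. Olr1, the receptor for oxidised LDL, alone was 2-fold or more higher, where 0.933% of genes were. It had 127 and 225 UMIs (4.44 and 8.91 CPM, log2 ratio 1.01). The interval of the Olr1 ratio was 0.69 to 1.33. Olr1 was lower in sGC ∆PC in the Il1b state, its highest (38 and 25 UMIs), and in monocytes (9.47 and 3.12 CPM). The median of the 10 receptors was -0.06. Cd68, the macrosialin of macrophage lysosomes, stood at 715 and 604 CPM (-0.24), and Lrp1, a large endocytic receptor, at 566 and 523 CPM (-0.11). In the mannose receptor family Mrc2 (55 and 58 UMIs) and Ly75 (33 and 31) passed the count and did not differ beyond counting error, and of the folate receptors Folr1 had 1 and 2 UMIs. Among the other hyaluronan receptors Cd44 stood at 0.24 and Hmmr, also a mitotic protein, at -0.69.

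Of 8 efferocytosis and other uptake receptors with enough UMIs, 1 was 2-fold or more lower, where 0.328% of genes were. Another 1 was 2-fold or more higher, where 0.933% of genes were. Short of 2-fold, Siglec1 stood at -0.35, Axl at 0.44 and Cd14 at 0.20. Cd209f, a C-type lectin, was counted with 158 against 7 UMIs (log2 ratio -4.32), but 9 and 6 cells carried them and 1 sGC Ctr cell held 67, so the count describes a few cells. In the resident-like state Cd209f stood at 41.7 and 2.32 CPM, and without the top cell of each library at 22.7 and 1.40 CPM. Timd4, a receptor for phosphatidylserine, had 21 and 62 macrophage UMIs (log2 ratio 1.74) in 13 and 41 cells. Among the macrophage states it was highest in the MHC class II high state, and monocytes stood above that state, at 14.9 and 12.5 CPM. Mertk, the efferocytosis kinase, was level at 26.8 and 26.3 CPM, and Vsig4 and Siglec1 were highest in the resident-like state in both libraries, like Cd163.

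The ligands followed no 1 direction. Of 6 with enough UMIs none was 2-fold or more changed: Apoe, the lipoprotein ligand, stood at 3500 and 2211 CPM (log2 ratio -0.66), Gas6, the bridge to Mertk and a marker of the resident-like gate, at -0.85, Thbs1, thrombospondin and a ligand of Cd36, at 198 and 380 CPM (0.94), Sparc, a ligand of Stab1, at 0.78, and Hp, the haptoglobin that hands hemoglobin to Cd163, at 0.77 from 118 and 177 UMIs. Sparc was a leading gene of ECs, pericytes and fibroblasts, and fibroblast markers counted in the macrophages were also higher in sGC ∆PC (0.62). Hp stood at 4.12 and 7.01 CPM in macrophages, but at 319 and 249 CPM in monocytes, where it was lower in sGC ∆PC. Thbs1 was a leading gene of monocytes and stood at 1835 and 2346 CPM in them. Monocyte markers counted in the macrophages were also higher in sGC ∆PC (0.31). Whether macrophages made these Thbs1, Sparc and Hp transcripts was not tested. Of 12 genes that handle hemoglobin and lipid after uptake none passed 2-fold, and their median was 0.01. Slc40a1, the iron exporter ferroportin, came closest at -0.98 (143 and 64 UMIs), and Hmox1, which opens the heme ring and is a marker of the Gpnmb gate, stood at 0.26. Of 8 regulators none passed 2-fold. Maf was highest in the resident-like state (1167 and 1101 CPM) and stood at -0.32 between the libraries, Klf4 at 0.58 and Spi1 at -0.28.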

How the data were processed

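Tumor cells of the 2 genotypes were profiled with droplet-based 3′ single-cell RNA sequencing, 1 library each from 3 pooled tumors. Per the labels and the methods, the authors aligned reads to mm10 with Cell Ranger (6.1.1 in the processing notes) and deposited raw UMI counts per gene and barcode, filtered for cells only. No other normalization had been applied.

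Barcodes were kept (log-scale limits of 3 median absolute deviations on the UMI and gene totals, and a mitochondrial share below 10%), which left 12220 sGC Ctr and 22498 sGC ∆PC cells. Cells were assigned to 12 classes by the UMIs of marker lists per 10000 UMIs, with at least 2 markers found. The limits were 10 for most classes, 100 for granulocytes and fibroblasts, and a cancer cell level under 4. Near the limit stood 207 and 358 cells with a macrophage level of 8 to 12, and 192 and 290 macrophages had a cancer level of 3 to 4. Macrophage states needed a list level at least 2 times its mean in macrophages and 5 UMIs. Cells that passed several classes (72 and 133) were left out, and no doublet caller was run. These limits were set after seeing the data, and the receptors and lists were chosen with earlier results of these data known. One list gene, Clec7a, was not analysed here.

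UMIs were summed per class and library and scaled to CPM. Poisson, conditional binomial and Clopper-Pearson intervals (95%) were exact. With 1 library per genotype no test was made, and a change of 2-fold in genes with at least 50 UMIs over both sides served as the limit. Percentiles and medians over all genes used a pseudocount of 0.5. Shares of cells were taken after thinning each cell to 2000 UMIs (seed 1). The receptors, the 3 genes most like each (among genes with at least 500 macrophage UMIs) and the listed genes a result turned on were named. The ratio intervals and the thinning were run on simulated counts. These counts followed the counting model of the intervals, so they cannot show how the intervals hold where few cells carry the UMIs. Promoter sequences came from RefSeq. Python 3.11.15, numpy 2.4.6, scipy 1.17.1, pandas 2.3.3, scanpy 1.11.5 and leidenalg 0.10.2 were used. Results were recomputed under 9 other settings and under 5 chosen after seeing the data.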

Additional observations from a re-analysis of the deposited data

Results flagged for a closer look

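The summed level of Mrc1 moved in opposite directions between the genotypes in 2 classes of cells. In monocytes its log2 ratio of sGC ∆PC over sGC Ctr was 0.93 (0.64 to 1.21), and in macrophages it was -0.44 (-0.48 to -0.41). With 1 library per genotype the difference between the classes was not tested. Without the monocyte with most Mrc1 in each library the levels were 48.3 and 91.1 CPM.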

How the results depend on the processing

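The ratio of sGC ∆PC over sGC Ctr in macrophages lay below 0 under all 9 other settings for Mrc1 (-0.77 to -0.31), Cd163 (-1.30 to -0.86), Stab1 (-0.88 to -0.52), Folr2 (-0.71 to -0.43) and Lyve1 (-0.74 to -0.28). Msr1 (-0.21 to 0.17) lay below 0 under 2 of the 9 (no limit on cancer cell markers, and -0.14 as a mean of single-cell CPM) and Cd36 (-0.13 to 0.50) under 1. The lowest value of each came with no limit on cancer cell markers, which lets mixed droplets in. The median over the 8 receptors, -0.46, was -0.72 with no limit on cancer cell markers and -0.54 as a mean of single-cell CPM. With mitochondrial UMIs under 5% it was -0.34, over the 7 receptors that still had at least 50 UMIs. With the states weighted as in sGC Ctr, an alternative chosen after seeing the data, it was -0.24. The count of receptors 2-fold or more lower, 1, became 0 with cells thinned to 2000 UMIs, 0 as a mean of single-cell CPM and 0 with the weighted states, and the cause was not tested. The other 4 alternatives chosen after seeing the data (without shared barcodes, without macrophages high in fibroblast markers, with at least 5000 UMIs, or without each top cell) gave medians of -0.46 to -0.41. The number of receptors highest in the resident-like state in both libraries was 5 in each alternative in which it was computed. No paired analysis was possible because each genotype had 1 library. Low counts limited Marco (38 and 37 macrophage UMIs) and Cd163 in monocytes (1 and 4 UMIs), and the osteoclast-like state held 36 and 52 cells.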
